A study of Rattus norvegicus with 18 samples.

Results

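Galanin (Gal) is a neuropeptide, and carboxypeptidase E (Cpe) is an enzyme that trims basic residues from peptide precursors in secretory granules. Every probe set annotated to either gene was followed. There was 1 probe set for Gal (J03624_at) and 1 for Cpe (L07281_at), 2 of the 4736 genes with a probe set of their own among the 8799 on the array, and both passed the filter on dim signals. Gal passed it only through arrays after fracture, since its signal was 7.8 to 17.6 without fracture. The femoral mid-shaft was sampled from intact female Sprague-Dawley (SD) rats, with marrow, cortical bone, and any callus included, at 6 times (no fracture, and 3 days, 1 week, 2 weeks, 4 weeks, and 6 weeks after a mid-shaft fracture held by an intramedullary rod) at 3 ages, called young (6 weeks of age at fracture), adult (26 weeks), and older (52 weeks). Each of the 18 arrays held the RNA of 2 rats of the same age and time, 1 array for each. The study placed both genes among its nerve-related genes that rose after fracture at all 3 ages, a choice made partly on these arrays. With 3 arrays for each age and time, it grouped both with genes whose response was similar in size across ages. It also drew on these arrays for how long Gal stayed high in older rats. Neither the direction of the changes after fracture nor the age difference in Gal at later times is therefore independent evidence here.

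Galanin is made as a precursor in neurons and in some endocrine cells, is packed into granules, and acts on 3 G protein-coupled receptors (Galr1, Galr2, and Galr3). Sensory and sympathetic neurons are known to make more galanin after their axons are injured, and galanin has also been found in bone and cartilage cells. The convertases cut peptide precursors at basic residues, Cpe removes the basic residues left at the cut, and Pam then forms the amide end that many neuropeptides carry.

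The bases in front of each gene are shown because both genes rose after fracture in the data that follow. Gal lies on chromosome 1 from 210079709 to 210084572 (minus strand) and Cpe on chromosome 16 from 29796707 to 29908647 (plus strand) in the RefSeq annotation of the GRCr8 assembly. The 250 bases before each start are written 5′ to 3′ on the strand of the gene, at chr1:210084573-210084822 for Gal and at chr16:29796457-29796706 for Cpe, and capitals mark the motifs found among those searched.
Gal: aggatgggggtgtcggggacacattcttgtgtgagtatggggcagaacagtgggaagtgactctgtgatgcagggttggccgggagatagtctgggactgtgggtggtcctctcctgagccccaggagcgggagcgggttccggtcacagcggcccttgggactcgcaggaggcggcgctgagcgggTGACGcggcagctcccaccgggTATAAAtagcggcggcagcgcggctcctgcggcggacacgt
Cpe: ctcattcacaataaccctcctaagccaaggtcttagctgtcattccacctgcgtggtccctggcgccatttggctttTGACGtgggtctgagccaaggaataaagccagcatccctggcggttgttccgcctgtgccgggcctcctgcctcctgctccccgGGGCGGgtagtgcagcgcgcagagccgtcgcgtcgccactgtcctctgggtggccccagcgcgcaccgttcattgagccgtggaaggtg
The motifs searched on both strands were the TATA box as TATAAA, the cyclic AMP response element as its core TGACG and as its full form TGACGTCA (which holds the core), the AP-1 site as TGANTCA, the CCAAT box, and the GC box as GGGCGG. Gal had TATAAA from 41 to 36 bases before its start and TGACG from 63 to 59 bases before it. Cpe had TGACG from 173 to 169 bases and GGGCGG from 89 to 84 bases before its start. The core element was in 18.2%, the TATA box in 12.9%, and the GC box in 30.5% of 33360 windows of 250 bases before RefSeq starts. The full element (1.59% of windows), the AP-1 site (6.35%), and the CCAAT box (34%) were not in either window. Of the bases shown, 66% were G or C before Gal and 63.2% before Cpe. A match describes the letters and was not tested as a binding site.

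Signals are Affymetrix intensities, scaled by the authors to an average of 500, which the files hold as a trimmed mean (500.6 to 500.9 with 2% of the probe sets trimmed at each end), and signals of 1 probe set were compared between arrays but not with those of another probe set. For the tests, signals below a floor of 100 were set to 100. Gal was below this floor in all unfractured femurs, with a signal of 9.6 in young, 17.6 in adult, and 7.8 in older rats. At 3 days it was 418.4 in young, 181.2 in adult, and 166.5 in older rats. All 3 arrays at 3 days were above all 3 unfractured arrays. At 1 week the signal was 780.4 in young, 775.6 in adult, and 237.2 in older rats. At 2 weeks it was 807.3 in young, 788.3 in adult, and 722.8 in older rats. The 3 ages were thus close together at 2 weeks, which was the highest time at each age, while the older array was the low one at 1 week. At 4 weeks the signal was 202.1 in young, 291.8 in adult, and 536 in older rats. At 6 weeks it was 14.7 in young, 175.8 in adult, and 480 in older rats. The young array at 6 weeks was again below the floor and lay within the range of the unfractured arrays, while the older array was the highest at both of these times.

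**Figure D1:**
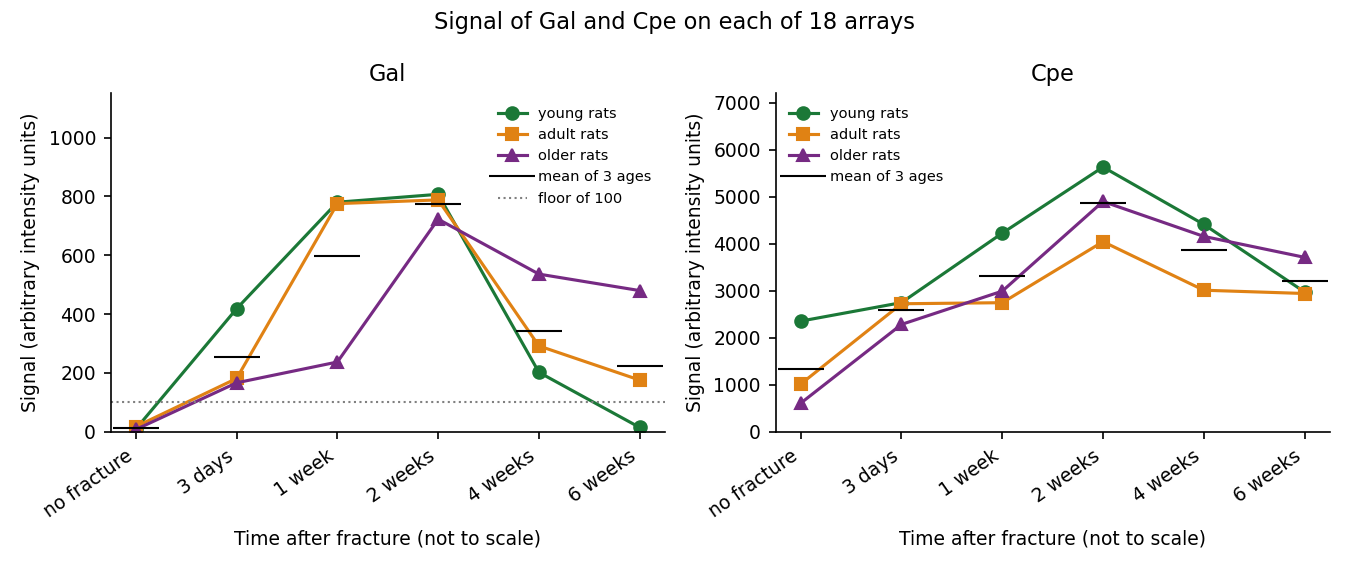
Signal of Gal (left) and Cpe (right) in arbitrary intensity units at the 6 times. Each point is 1 array of RNA from 2 rats, lines join the arrays of an age, black bars are the means of the 3 ages, and the dotted line is the floor of 100. Both genes were highest at 2 weeks at each age, Gal was below the floor in the 3 unfractured arrays and the young 6 weeks array, and Cpe was never near it.

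Averaged over the 3 ages, Gal was 11.7 ± 5.22 without fracture (SD, n = 3) and 772.8 ± 44.3 at 2 weeks (SD, n = 3). The SD was wider at 1 week (598 ± 312) and at 6 weeks (223.5 ± 236) than at 2 weeks. The mean was 255 ± 141 at 3 days and 343 ± 173 at 4 weeks. In order of the means, the times ran from no fracture through 6 weeks, 3 days, 4 weeks, and 1 week to 2 weeks, and the arrays of every pair of neighbours in this order overlapped. On its own array the Gal signal stood at percentile 4.01 to 13.2 of all probe sets without fracture and at percentile 81.7 to 83.8 at 2 weeks.

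Gal rose after fracture at 1 and 2 weeks. The log2 change from no fracture was 2.39 ± 0.56 (SE) at 1 week (adjusted p = 0.00533, limma) and 2.95 ± 0.56 at 2 weeks (adjusted p = 0.00173, limma). The unfractured arrays were all below the floor, so the floor understates these estimates, 5.24-fold at 1 week and 7.72-fold at 2 weeks. They still carry sampling error, with log2 confidence intervals from 1.20 to 3.57 at 1 week and from 1.76 to 4.13 at 2 weeks. Among all probe sets tested, 14.3% were called higher at 1 week and 12.8% at 2 weeks. The change of Gal at 2 weeks ranked 26 from the highest of 4669, a set that Gal entered only through its signals after fracture. At 3 days the log2 change was 1.22 ± 0.56 (adjusted p = 0.0895, limma), where 24.5% of probe sets were called higher. It was 1.66 ± 0.56 at 4 weeks (adjusted p = 0.0946, limma, with 5.05% called higher) and 1.03 ± 0.56 at 6 weeks (adjusted p = 0.330, limma, with 3.19% called higher). Gal was not called at these 3 times, but 3 days passed without the older 1 week array or without the older 6 weeks array (both 1.22), and 4 weeks passed without the older 6 weeks array (1.66). The floor also set these calls, since with a floor of 20 the log2 change was 3.54 at 3 days and 3.98 at 4 weeks and both were called, and with a floor of 200 the change of 1.39 at 1 week was not.

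Cpe was well above the floor on all 18 arrays. Without fracture its signal was 2355.5 in young, 1015.4 in adult, and 608.9 in older rats. At 3 days it was 2749.4 in young, 2724.9 in adult, and 2285.2 in older rats. The unfractured arrays were spread widely and the 3 day arrays narrowly, and they overlapped, since the unfractured young array was above the older array at 3 days. At 1 week the signal was 4227.6 in young, 2747.5 in adult, and 2993.5 in older rats. At 2 weeks it was 5634.6 in young, 4046.8 in adult, and 4901.5 in older rats. Every array at 1 week and at 2 weeks was above every unfractured array, and as for Gal the highest time was 2 weeks at each age. At 4 weeks the signal was 4413.8 in young, 3013.1 in adult, and 4158.5 in older rats. At 6 weeks it was 2975.7 in young, 2943.1 in adult, and 3713 in older rats. These arrays too were above all 3 unfractured arrays.

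Averaged over the ages, Cpe was 1326.6 ± 914 without fracture (SD, n = 3), 2586.5 ± 261 at 3 days, and 3323 ± 793 at 1 week. It was 4861 ± 795 at 2 weeks, 3862 ± 746 at 4 weeks, and 3211 ± 435 at 6 weeks. In order of these means the times ran from no fracture through 3 days, 6 weeks, 1 week, and 4 weeks to 2 weeks. The arrays of neighbours in this order overlapped, except that all 3 arrays at 6 weeks were above all 3 at 3 days, a difference that was not tested. Its percentile on its own array was 78.5 to 93.3 without fracture and 95.9 to 97.3 at 2 weeks.

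Cpe rose after fracture at all 5 times. The log2 change from no fracture was 1.19 ± 0.31 (SE) at 3 days (2.27-fold, adjusted p = 0.00586, limma) and 1.53 ± 0.31 at 1 week (2.88-fold, adjusted p = 0.00183, limma). It was 2.09 ± 0.31 at 2 weeks (4.25-fold, adjusted p = 4.10e-04, limma). Cpe was still higher at 4 weeks, by 1.75 ± 0.31 (3.36-fold, adjusted p = 0.00360, limma), and at 6 weeks, by 1.49 ± 0.31 (2.82-fold, adjusted p = 0.0155, limma). The share of all probe sets called higher went from 24.5% at 3 days to 3.19% at 6 weeks. At 6 weeks the change of Cpe ranked 67 from the highest of 4669, and at 3 days it ranked 564. The unfractured arrays were far apart, so the size at 3 days was 0.73 without the older one and 1.63 without the young one. The call at 6 weeks was lost without the adult (1.46) or the older (1.28) 6 weeks array. The calls at 3 days and 4 weeks were lost with only the 6 arrays compared (1.19 and 1.75), without the adult rats (1.07 and 1.84), and without the older rats (0.82 and 1.24), as was that at 6 weeks, and by the methods' t-test Cpe was not called at any of the 5 times.

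**Figure D2:**
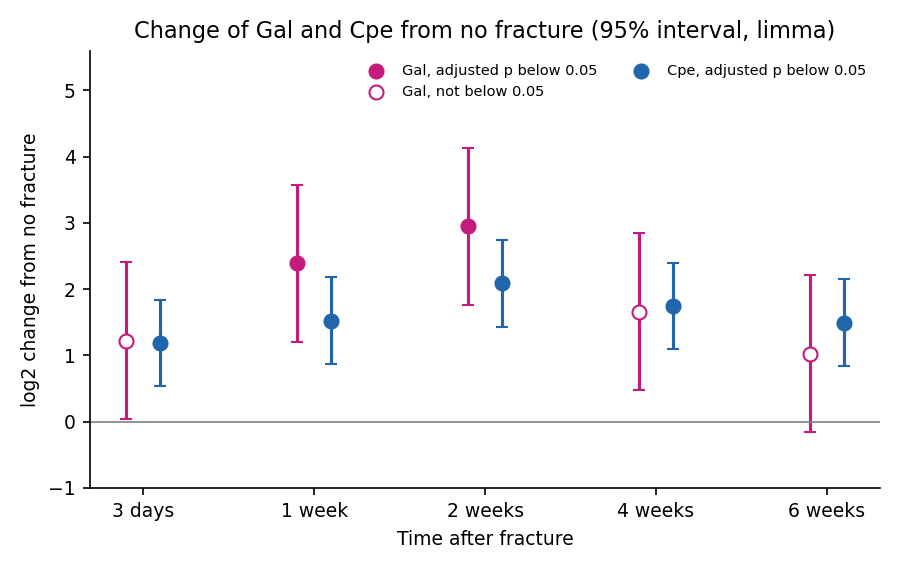
Log2 change of Gal and Cpe from no fracture at the 5 times after fracture, from the limma fit of 18 arrays with time and age as terms. Bars are 95% intervals, filled points had an adjusted p below 0.05, and Gal changes are understated by the floor. Both genes were highest at 2 weeks (2.95 for Gal and 2.09 for Cpe).

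All 5 comparisons share the same 3 unfractured arrays, from rats at the age of fracture. No unfractured rats were taken at the later times, so aging since fracture cannot be told apart from time after fracture. The 3 arrays of a time were of different ages, so these p-values rest on how far the ages disagreed, once age differences shared by all times were removed, and not on the spread among rats of 1 age. An exact permutation test moved the unfractured label to any of the 6 arrays within each age, which gave 216 assignments and a smallest possible p of 0.00463. Over the 15 arrays after fracture Cpe was higher by 1.61 on the log2 scale (exact permutation p = 0.00463, two-sided, the smallest possible) and was above its own age's unfractured array on 15 of 15 arrays. Gal was higher by 1.85 (exact permutation p = 0.00926, two-sided) and was above it on 14 of 15 arrays, the exception being the young array at 6 weeks, which was above it only before the floor was set. In a segment of tissue, more cells that hold an RNA and more of the RNA in each cell cannot be told apart.

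No step between neighbouring times was called for either gene. The log2 step of Gal was 1.17 ± 0.56 (SE) from 3 days to 1 week (adjusted p = 0.210, limma), 0.56 ± 0.56 from 1 to 2 weeks, -1.29 ± 0.56 from 2 to 4 weeks (adjusted p = 0.452, limma), and -0.64 ± 0.56 from 4 to 6 weeks. The step from 1 to 2 weeks was -0.15 without the older 1 week array. For Cpe the 4 steps were 0.34, 0.56, -0.34, and -0.26, each ± 0.31. Across all probe sets tested, 3.17% were called in either direction from 3 days to 1 week, 0% from 1 to 2 weeks (159 probe sets at an unadjusted p under 0.05), 0.557% from 2 to 4 weeks, and 0% from 4 to 6 weeks (200 at an unadjusted p under 0.05). The 95% intervals still held steps of some size, for example from -0.63 to 1.75 for Gal and from -0.09 to 1.21 for Cpe from 1 to 2 weeks.

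Gal was high at different times on the arrays of the 3 ages. Young and adult rats had reached 780.4 and 775.6 by 1 week, when older rats were at 237.2, and older rats were at 480 at 6 weeks, when young rats were at 14.7. In this and the later comparisons of ages, the arrays of an age were of different times, so the SDs hold changes over time. The p-values rest on how far the age differences disagreed between times, and not on the spread among rats of 1 age. At 1 and 2 weeks together Gal was 793.9 ± 19.0 in young rats (SD, n = 2) and 480 ± 343 in older rats (SD, n = 2). The log2 difference of older from young was -0.94 ± 0.40 (SE, adjusted p = 0.339, limma), and 0.15% of probe sets were called lower. At 4 and 6 weeks it was 508 ± 39.6 in older rats (SD, n = 2) and 108.4 ± 133 in young rats (SD, n = 2). Both older arrays were above both young arrays. This difference passed the test, with a log2 difference of 1.84 ± 0.40 (3.57-fold after the floor was set, adjusted p = 0.0428, limma). Its log2 confidence interval ran from 0.95 to 2.72, and 1.88% of probe sets were called higher in this comparison. The young 6 weeks array was set to the floor, so the estimate moves with the floor, from 1.34 with a floor of 200, where it was not called, to 3.00 with a floor of 20. Adult rats lay between them at both times. The call was close to the threshold, and was lost when any of 8 arrays was left out (young, adult, or older at 4 or 6 weeks, or adult at 1 or 2 weeks), with log2 differences from 1.48 without the older 6 weeks array to 2.19 without the older 4 weeks array. The young 6 weeks array stood apart in RNA quality, with a 5′ over 3′ ratio of Gapdh probe sets of 0.257 against 0.650 to 0.913 on the other arrays, and without it the difference was 1.55. Cartilage markers were in the same order of ages as Gal at 4 and 6 weeks, with a summed signal of 2701.2 in young, 9490.3 in adult, and 12073.4 in older rats at 4 weeks and of 1223.5, 3486.5, and 8501.2 at 6 weeks. At 1 week they were not, with 10431.7 in young, 11844.1 in adult, and 18443.6 in older rats, when Gal was lowest in older rats. Their part in the Gal difference was not tested.

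A direct test of the change in the age difference, added after the values were seen, gave a log2 value of 2.77 ± 0.56 (SE) for Gal at 4 and 6 weeks less 1 and 2 weeks (adjusted p = 0.175, limma). It ranked 5 from the highest of 4669, but 0 probe sets were called in this comparison, with 337 at an unadjusted p under 0.05. A change of the age difference in Gal from early to late times therefore did not pass the test. For Cpe the same value was 0.47 ± 0.30 (adjusted p = 0.798, limma). The difference of older from young rats in Cpe was -0.35 ± 0.21 at 1 and 2 weeks (adjusted p = 0.537, limma) and 0.12 ± 0.21 at 4 and 6 weeks (adjusted p = 0.797, limma), the latter being -0.12 without the young 6 weeks array.

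Over all 5 times after fracture no difference between ages in the mean level passed the test for either gene. Gal was 444.6 ± 350 in young, 442.5 ± 313 in adult, and 428.5 ± 227 in older rats (SD, n = 5 arrays each). The log2 difference of older from young was 0.09 ± 0.45 (SE, adjusted p = 0.946, limma), with a 95% interval from -0.88 to 1.07, and its sign turned without the young or the older array at 4 or 6 weeks (-0.14 to -0.35). Cpe was 4000 ± 1173 in young, 3095 ± 546 in adult, and 3610 ± 1014 in older rats (SD, n = 5 arrays each). The largest of the 3 Cpe differences was adult less young, at -0.34 ± 0.15 (SE, adjusted p = 0.341, limma). Older less young was -0.15 ± 0.15 (adjusted p = 0.605, limma), with a 95% interval from -0.46 to 0.17. Of all probe sets, 0.15% were called between older and young rats, 3.73% between older and adult, and 0% between adult and young (618 at an unadjusted p under 0.05).

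The ages were farthest apart in Cpe before fracture, where there was 1 array for each age. Cpe rose over its own age's unfractured array by 1.17-fold to 2.39-fold in young rats. The rise was 2.68-fold to 3.99-fold in adult rats and 3.75-fold to 8.05-fold in older rats, and at every time the order was older, adult, young. All rises of an age share 1 unfractured array, so this order is not separate evidence at each time. The log2 difference of older from young was -1.95 without fracture and -0.50 to 0.32 after it. The age difference in Cpe (older less young) was higher after fracture than without it by a log2 value of 1.81 ± 0.36 (3.49-fold, adjusted p = 0.0173, limma), where 1.58% of probe sets were called higher. The unfractured side of this test is 1 array for each age, and the difference between these arrays (2355.5 and 608.9) has no replicate. The study, on more arrays, grouped Cpe with genes whose response was similar in size across ages. The unfractured arrays were in the same order of ages in osteoblast and bone matrix markers, with a summed signal of 85066.3 in young, 50346 in adult, and 26773.9 in older rats, and in fibrous matrix markers, with 40287.6, 15682.6, and 8927.7. Their part in the Cpe difference was not tested. The same comparison for Gal gave 0.09 ± 1.12 (adjusted p = 0.976, limma), with both unfractured arrays at the floor.

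**Figure D3:**
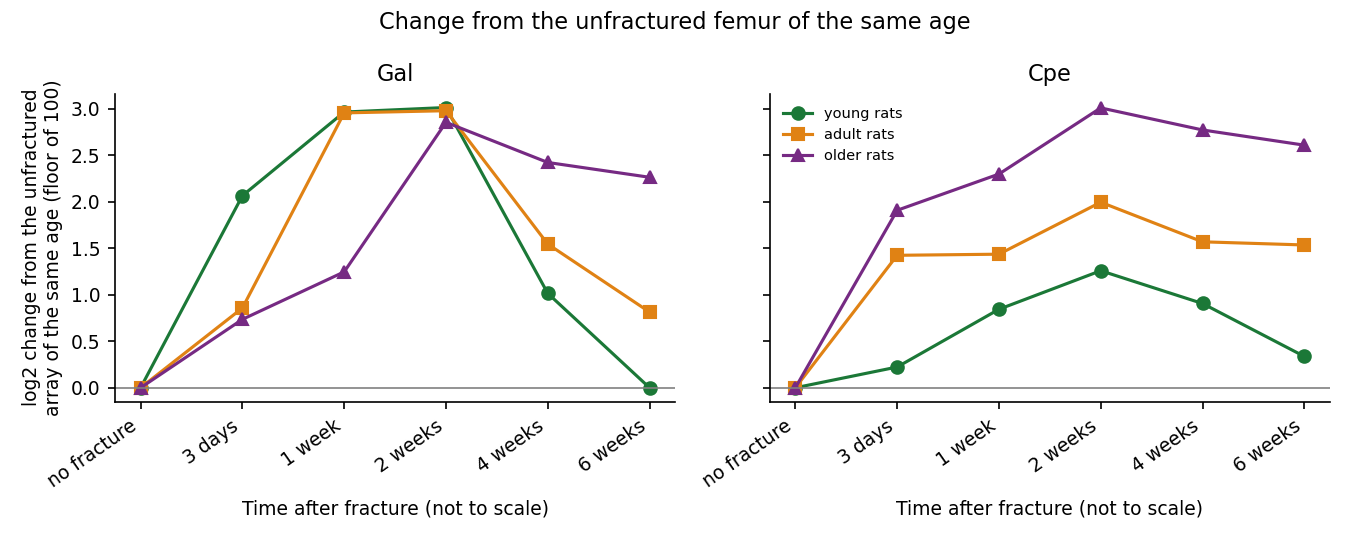
Log2 change of Gal (left) and Cpe (right) from the unfractured array of the same age, with signals below 100 set to 100. Each point is 1 array, and lines join the arrays of an age. All points of a line are set against the same 1 unfractured array. For Gal the older line was the lowest at 1 week and the highest at 4 and 6 weeks, and for Cpe the older line was above the adult line, and the adult above the young, at every time.

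Gal and Cpe were compared across arrays. The arrays share times and ages, and both genes had their highest signal at 2 weeks, so the p-values, which take the arrays as interchangeable, do not test a relation apart from time. Over the 18 arrays Pearson r of their log2 signals was 0.687 and Spearman rho was 0.742 (permutation p = 1.8e-04 and 7.9e-04, two-sided, adjusted p = 0.00144 and 0.00316 over 8 p-values). Without the young and adult arrays at 2 weeks, those farthest from the median of Gal, r was 0.639. Over the 15 arrays after fracture r was 0.599 (permutation p = 0.0195, adjusted p = 0.0275) and rho was 0.600. With the means of time and age removed r was 0.247 (permutation p = 0.326, adjusted p = 0.338) and rho was 0.241.

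**Figure D4:**
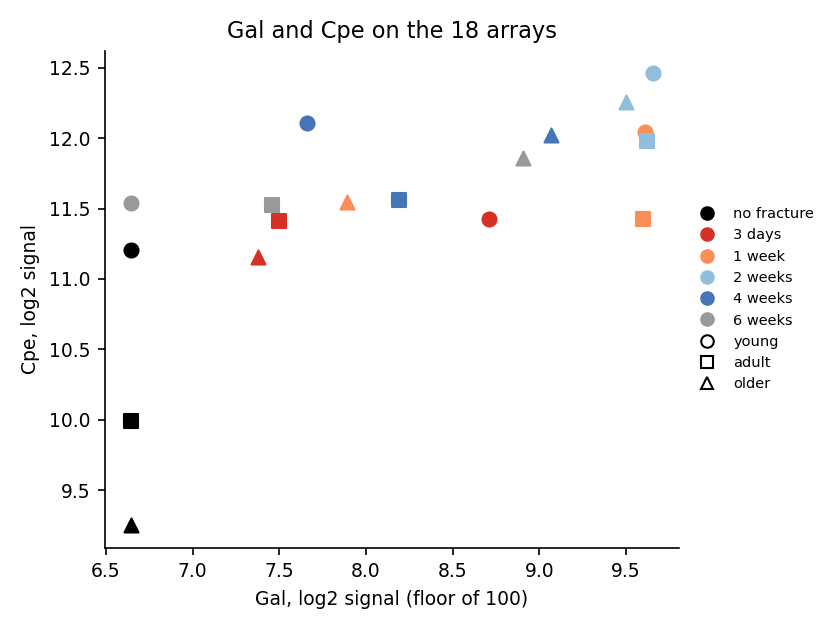
Log2 signal of Cpe against log2 signal of Gal (floor of 100) on the 18 arrays, with color for time and shape for age. The 3 arrays at 2 weeks lie at the upper right, and 4 arrays lie on the Gal floor at the left, the 3 without fracture and the young array at 6 weeks.

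Among other genes, those with the most similar pattern to each were found by Pearson r over the 18 arrays, from probe sets with a mean signal of 500 or more. These values describe the arrays, which share times and ages. For Gal they were Atp6v0c (a proton pump subunit, r = 0.91), Fyn (a tyrosine kinase, 0.88), Ckb (a creatine kinase, 0.86), Col2a1 (the main collagen of cartilage, 0.85), and Tjp1 (a tight junction protein, 0.83). The most opposite were Srgn (-0.82), Pf4 (-0.81), and Nup62 (-0.80). For Cpe the most similar were Serpine2 (a protease inhibitor, 0.91), Spp1 (osteopontin, 0.91), Sparc (osteonectin, 0.90), Ctsk (the cathepsin of osteoclasts, 0.89), and Agrn (agrin, 0.88). The most opposite were Gda (-0.80), Mapkapk3 (-0.79), and C5ar1 (-0.79). Over the 15 arrays after fracture r with Cpe was 0.29 for Sparc, 0.45 for Agrn, 0.65 for Spp1, 0.74 for Ctsk, and 0.84 for Serpine2. For the most opposite it was -0.40 for Gda, -0.56 for Mapkapk3, and -0.57 for C5ar1. All of these correlations with Cpe were thus weaker without the unfractured arrays. For the 5 genes most like Gal r with Gal was 0.75 to 0.91 after fracture, and for the most opposite it was -0.72 to -0.76.

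The galanin receptors were below the floor on all 18 arrays and were not tested. The highest signal was 45.2 for Galr1, 34.7 for Galr2, and 87.5 for Galr3. No change in the receptors was detectable at these signals. The related peptides Galp and Spx had no probe set named for them.

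Of the 23 listed peptide processing enzymes, 15 were on the array and 12 were tested, Cpe among them. Pcsk2, a main convertase of neuroendocrine granules, its helper Scg5, and the glutaminyl cyclase Qpct did not pass the filter. The convertase Pcsk1 and the related Pcsk1n had no probe set named for them. Of the 12, 5 were higher and 2 lower at 3 days, 5 higher and 1 lower at 1 week, and 6 higher and 1 lower at 2 weeks, against the shares of all probe sets called higher given above and 19.7%, 10.5%, and 8.27% called lower. At 4 weeks 4 were higher and 0 lower, and at 6 weeks 3 were higher and 1 lower, with 1.43% and 1.2% of all probe sets called lower. Cpe, which the study chose partly on these arrays, was 1 of those higher at each time. The median log2 change of the 12 was 0.37, 0.74, 0.55, 0.41, and 0.42 at the 5 times in turn, and that of all probe sets was at most 0.0497 in size.

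Besides Cpe, other members of the carboxypeptidase family rose. Cpz, a secreted carboxypeptidase of the matrix, rose at all 5 times, with a log2 change from 1.44 ± 0.35 at 3 days to 1.95 ± 0.35 at 2 weeks. Aebp1, a matrix protein with an inactive carboxypeptidase domain, also rose at all 5 times, from 2.36 ± 0.52 at 6 weeks to 3.29 ± 0.52 at 1 week. Cpd, a carboxypeptidase of the trans-Golgi network, was not called, with log2 values from 0.79 at 1 week to -0.95 at 6 weeks. The cysteine protease Ctsl rose at the first 4 of these times, from 1.99 ± 0.31 at 3 days to 1.16 ± 0.31 at 4 weeks, but its other probe set was flat (565.4 ± 116 without fracture and 611.8 ± 56.8 at 3 days, SD, n = 3).

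The tested convertases, Furin, Pcsk5, Pcsk6, and Pcsk7, moved in different directions. Furin, which cuts precursors on the constitutive route, fell by 1.07 ± 0.23 (log2) at 1 week and by 0.96 ± 0.23 at 2 weeks, and was also lower at 3 days and 6 weeks. Pcsk6 rose by 1.70 ± 0.31 at 3 days and by 1.34 ± 0.31 at 2 weeks. Pcsk5 fell by 1.14 ± 0.32 at 3 days. Pcsk7 was not called (0.21 to 0.35). Pam rose by 0.70 ± 0.20 at 1 week and by 0.69 ± 0.20 at 2 weeks, the times at which Gal was called. Rnpep and Nrdc, which act on basic residues, were not called, with log2 values from -0.45 to 0.39. The age difference (older less young) was higher after fracture than without it for Aebp1 (2.90 ± 0.60) and Ctsl (1.79 ± 0.36) as well as Cpe, where 1.58% of all probe sets were called higher, but the 3 values rest on the same 2 unfractured arrays, 1 for each age, with no replicate. Ctsl alone of the 12 was called between older and adult rats after fracture (0.57 ± 0.15), where 2.38% of all probe sets were called higher in older rats.

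**Figure D5:**
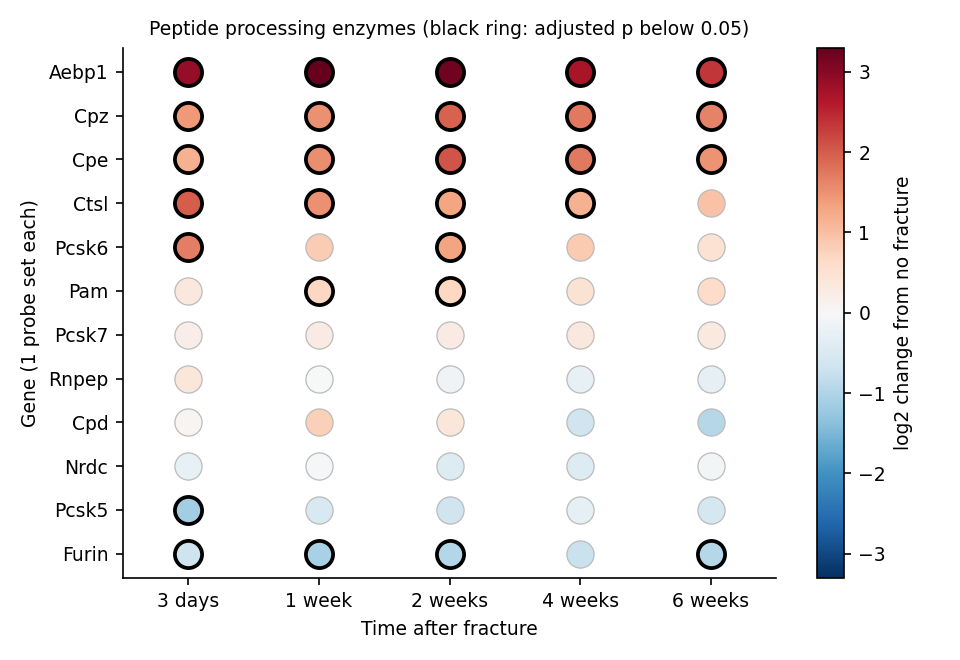
Log2 change from no fracture of the 12 tested peptide processing enzymes (rows) at the 5 times after fracture (columns). Red is higher and blue is lower after fracture, a black ring marks an adjusted p below 0.05, and each gene is shown by its probe set of highest mean signal. Aebp1, Cpz, and Cpe have a ring at all 5 times, and Furin is the only one below no fracture with a ring at more than 1 time.

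Of 40 neuropeptides and peptide hormones on the array 12 were tested. At 2 weeks 2 were higher and 1 lower, against 12.8% and 8.27% of all probe sets, and at 3 days 1 was higher and 5 lower, against 24.5% and 19.7%. The count at 2 weeks was near these shares. Their median log2 change at 2 weeks was -0.07. Npy, a peptide of sympathetic nerves, fell at the first 4 times, by 2.29 ± 0.40 (log2) at 1 week, and was 862.5 ± 676 without fracture and 159.5 ± 91.5 at 1 week (SD, n = 3). Ghrh rose by 1.10 to 1.31 at 3 days, 1 week, and 2 weeks on the 1 of its 5 probe sets that was tested. Ins1 (-1.09 ± 0.36) and Avp (-0.96 ± 0.24) fell at 3 days, each on the only 1 of its probe sets that passed the filter. Trh and Hcrt were the others that were lower at 3 days and Adcyap1 the other that was higher at 2 weeks, named here after their values were seen. The sensory peptides Tac1 and Calca did not pass the filter.

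Of 18 granule proteins on the array 6 were tested, and 1 was higher at 3 days, 1 at 1 week, and 1 at 6 weeks, against 24.5%, 14.3%, and 3.19% of all probe sets. Ptprn, a granule membrane protein, rose by 1.39 ± 0.28 at 3 days and by 0.93 ± 0.28 at 1 week, and Stx1a, a membrane protein of vesicle release, by 0.80 ± 0.22 at 6 weeks. Of 9 tested enzymes that break down peptides 5 were higher at 3 days, 3 at 2 weeks, and 1 at 6 weeks, and 0 were lower at these times, against 24.5%, 12.8%, and 3.19% of all probe sets called higher. Cpq, a plasma glutamate carboxypeptidase, rose at all 5 times (0.55 to 0.96). Mme, or neprilysin, rose at the first 4 times, by 1.23 ± 0.25 at 4 weeks. Anpep rose by 1.06 ± 0.31 at 2 weeks, although another of its probe sets was at 537 ± 123 without fracture and 449 ± 81.4 at 2 weeks, and Nln rose by 0.88 ± 0.26 at 3 days.

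Factors that are known to act on galanin or to mark injured neurons were listed as well, and 8 were tested. At 3 days 6 were higher and 1 lower, and at 2 weeks, the highest time of Gal, 3 were higher and 0 lower. Of all probe sets 24.5% were higher and 19.7% lower at 3 days, and 12.8% were higher at 2 weeks. Il6 rose by 2.51 ± 0.40 (log2) at 3 days. Its signal was 10.5 ± 2.39 without fracture (SD, n = 3), so it passed the filter only through arrays after fracture. Egr1 rose at all 5 times, by 2.36 ± 0.24 at 3 days and 1.16 ± 0.24 at 6 weeks. Another of its probe sets did not rise, at 240.7 ± 122 without fracture and 203.6 ± 44.9 at 3 days (SD, n = 3). The remaining ones went from 219.9 ± 41.5 to 923.6 ± 338 and from 113.6 ± 12.7 to 520.8 ± 122. Fos rose by 1.48 ± 0.28 at 3 days and by 1.06 ± 0.28 at 2 weeks, and Atf3 by 1.06 ± 0.32 at 3 days and 1.05 ± 0.32 at 1 week. The 1 that was lower at 3 days was Sprr1a, which injured neurons are known to make, with a signal of 1482 ± 492 without fracture and 806.1 ± 27.4 at 3 days (SD, n = 3), and it is named here after its values were seen.

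Markers of several cell types moved along with Gal and Cpe, and their part in the changes of the 2 genes was not tested. The counts stand against 12.8% of all probe sets called higher and 8.27% called lower at 2 weeks. Of 15 neuron and axon markers on the array 4 were tested and 0 were called at any of the 5 times, each on its probe set of highest mean signal. Another tested probe set of Uchl1 was at 95.6 ± 34.5 without fracture, 296.4 ± 29.9 at 3 days, and 205.4 ± 75.7 at 2 weeks (SD, n = 3). It is named here after its values were seen. Nefh, Map2, Scn10a, Dbh, and Ina were below the floor on all 18 arrays. The summed signal of the 15 neuron and axon markers was 1213.1 to 1722.4 without fracture and 1384.4 to 1849.1 at 2 weeks. Of 7 tested Schwann cell and myelin markers 1 was higher and 1 lower at 2 weeks, near these shares, with a summed signal of 4011.7 to 4514.9 without fracture and 3056.4 to 4959.9 at 2 weeks. At 2 weeks all 5 tested cartilage markers were higher, and the sum over the 6 on the array, with Col9a1 below the floor on all arrays, was 264.5 to 2218 without fracture, 17131.7 to 24540.2 at 2 weeks, and 1223.5 to 8501.2 at 6 weeks. Osteoblast and bone matrix markers (7 of 9 tested higher at 2 weeks) had a summed signal of 26773.9 to 85066.3 without fracture and 105364 to 135594 at 2 weeks, and none of the 10 was below the floor on all arrays. Osteoclast markers (3 of 3 tested higher at 2 weeks) had a summed signal of 1309.9 to 4641.2 without fracture and 29998.9 to 37403.5 at 2 weeks. Of the other marker lists, 9 of 10 fibrous matrix, 2 of 4 endothelial, and 1 of 3 macrophage markers tested were higher at 2 weeks, 0 of 9 muscle and 0 of 3 mast cell markers were called, and 4 of 4 erythroid, 4 of 4 neutrophil, 1 of 6 adipocyte, and 1 of 3 macrophage markers were lower.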

How the data were processed

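The authors pooled RNA of 2 rats per sample, hybridized labeled cRNA to Affymetrix rat oligonucleotide arrays, and scaled the signals of Affymetrix Microarray Suite to an average of 500 on each array, which is a trimmed mean in the values given (their plain mean was 698.2 to 839.4). The deposited values are these intensities on a linear scale, 1 per probe set and array. The calls of presence made by the same software were not used here. An average scaling makes each signal relative to the rest of its array, so a signal says nothing of total RNA. Arrays carry no counts, and their number limits the precision. The 18 arrays are 1 of several series of the study, and the other series were not used here.

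Gene symbols came from the platform annotation, updated through gene identifiers, so that 7018 probe sets had 1 symbol, 308 had several, and 1473 had none. Controls (59 probe sets) were left out. Signals below 100 were set to 100 and log2 was taken. To be tested, a probe set needed 3 or more arrays with a signal of at least 200, which 4669 had (3877 of them with 1 symbol). The floor replaced 37.2% to 43.3% of the signals on each array. A floor understates the change of a gene such as Gal that starts below it.

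Times were compared with the limma package (version 3.58.1, R 4.3.3), in a two-sided moderated test with a mean-variance trend on 18 arrays, with time and age as terms. The fit for ages used time as a term and the 15 fractured arrays, older and young rats also within 1 and 2 weeks and within 4 and 6 weeks, and after against without fracture over 18 arrays. Benjamini-Hochberg adjustment covered all 4669, and 0.05 was the threshold. Single values had an exact permutation test, and correlations a permutation test of 100000 resamples (scipy 1.17.1). The p-values measure only the spread between these arrays, which may be technical. The fits were tested on simulated data.

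The genes named are Gal and Cpe, every tested gene of the lists of galanin genes and processing enzymes, up to 4 called genes with the largest change of the neuropeptide, granule, degrading enzyme, and injury lists, and the 5 most and 3 least similar genes to each. Genes that did not pass the filter are named only as such. Each listed gene stands for its probe set of highest mean signal. The members and lists were chosen with earlier results of these data known. Alternatives were floors of 20 and 200, log2 of the signal plus 50, no filter, a filter at 500, other scalings and moderations, other sets of arrays, and the methods' t-test. This t-test had fewer arrays than in the study and a Benjamini-Hochberg adjustment that the study did not describe for it. Promoter windows came from RefSeq for the GRCr8 assembly, and both genes matched by symbol. Protein sequences were not used here.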

Additional observations from a re-analysis of the deposited data

Results flagged for a closer look

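The Cpe signal of the adult array at 2 weeks (4046.8) stood away from the other adult arrays after fracture, which ran from 2724.9 to 3013.1. Its gap to the nearest of them was 0.782 of the whole range of the 5 arrays, against a critical value of 0.71. The arrays of a group here are different times, and 2 weeks was the highest time at each age. Of the 6 groups examined (Gal and Cpe at 3 ages) it was the 1 that passed, and chance would mark about 1 group in 20.

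The difference of older from young rats in Cpe after fracture departed from that without fracture by a log2 value of 1.81 ± 0.36 (SE, adjusted p = 0.0173, limma). The unfractured signal was 2355.5 in young and 608.9 in older rats, 1 array each, and the means after fracture were 4000 and 3610 (n = 5 arrays each). The rise over the unfractured array of the same age was larger in older rats than in young rats at 5 of 5 times. These rises all share the same unfractured young and older arrays, so they are not 5 separate observations.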

How the results depend on the processing

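Most values kept their direction and their side of the threshold. Of 216 values of Gal under settings other than an array left out 193 did so, and of 212 of Cpe 195. The cause of a lost or gained call was not tested.

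With a floor of 20 the log2 change of Gal was 3.54 at 3 days and 3.98 at 4 weeks, and with log2 of the signal plus 50 it was 2.22 and 2.59, all called. With a floor of 200 it was 1.39 at 1 week and the older less young difference at 4 and 6 weeks was 1.34, neither called, older less young after fracture and its departure were both -0.05 (-0.054), adult less young was -0.12, and the single value after fracture was 0.955 (exact permutation p = 0.120). Without a filter Cpe at 6 weeks (1.49) and the Gal difference at 4 and 6 weeks (1.84) lost their calls. That Gal difference was also not called with quantile normalization (1.69), equal array medians (1.69), moderation without trend (1.84), or the methods' t-test (1.84). Gal older less adult was -0.037 with quantile normalization and -0.025 with equal medians, and Cpe older less young at 4 and 6 weeks was -0.022 with equal medians. With only the 6 arrays compared Gal at 3 days (1.22) was called and Cpe at 3 days (1.19), 4 weeks (1.75), and 6 weeks (1.49) was not. Without the adult rats Cpe at 3 days (1.07), 1 week (1.57), 4 weeks (1.84), and 6 weeks (1.47) and Gal at 1 week (2.11) and 2 weeks (2.93) lost their calls. Without the older rats Gal at 3 days (1.46) gained its call and Cpe at 3 days (0.82), 4 weeks (1.24), and 6 weeks (0.94) lost it. With the methods' t-test, on fewer arrays than in the study and after Benjamini-Hochberg adjustment, Cpe was not called at any time (1.19, 1.53, 2.09, 1.75, and 1.49) nor was Gal at 1 week (2.39). The correlation of Gal and Cpe was 0.247 with time and age means removed.

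With 1 array left out in turn, Gal ranged from 0.69 to 1.54 at 3 days, from 1.23 to 2.03 at 4 weeks, from -0.15 to 0.92 for 2 weeks less 1 week, from -0.35 to 0.54 for older less young after fracture and for its departure, from -0.37 to 0.52 for older less adult, from -0.35 to 0.35 for adult less young, and from 1.48 to 2.19 for older less young at 4 and 6 weeks. Cpe ranged from 1.04 to 1.94 at 6 weeks and from -0.12 to 0.35 for older less young at 4 and 6 weeks. The Cpe departure kept its call under all alternatives that could be fitted (1.71 to 1.89), which do not include leaving out the young or the older unfractured array.

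Counts of all called probe sets were 2062, 1160, 984, 303, and 205 at the 5 times. They were 848, 1, 18, 0, and 0 by the methods' t-test after Benjamini-Hochberg (1834, 1004, 898, 498, and 377 at an unadjusted p under 0.05), 112 and 60 at 4 and 6 weeks without a filter, and 190 and 104 without an age term. For older less young after fracture the count of 7 was 0 with a floor of 200, without a filter, or by the t-test, 38 with a filter at 500, and 2 with all 18 arrays. The count of 174 for older less adult was 103, 0, 643 (all 18 arrays), and 3 (t-test), the count of 24 at 1 and 2 weeks was 9, 5, and 0 (t-test), and the count of 131 at 4 and 6 weeks was 16, 22, and 0 (t-test), each with a floor of 200 and without a filter first. The departure count of 119 was 196 and 281 with these, and the count of 0 for the change in the age difference was 3 with a floor of 20 or without a filter. Times were compared within ages, since age was a term of the fits of time and the permutation test moved labels within each age. No pairing by series was possible, because the labels put all 18 arrays in 1 series, with 1 array for each age and time.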
